A study of Mus musculus with 6 samples.

Results

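Fatty acid and triglyceride synthesis genes were followed across liver tumours, KAP1-deleted livers and control livers of mice fed a high-fat diet. The 32 members were chosen by function, as enzymes and regulators of de novo lipogenesis, elongation, desaturation and triglyceride assembly. The choice was made with earlier results of these data known. Each of the 32 symbols matched 1 of the 37991 Ensembl genes in the count tables. All 32 passed the filter on low counts. The tumours (D580T and D648T) and the KAP1-deleted livers (D580L and D648L) came from mice labelled TgAlbCreKap1lox, and the control livers (D577L and D647L) from mice labelled TgAlbCre, so that every animal carried the Alb-Cre transgene. Alb-Cre expresses the recombinase under the albumin promoter, thus in hepatocytes. The Kap1 gene is named Trim28 in the annotation, and which other cells of these livers kept it intact was not measured. All mice were killed at 35 weeks of age after 27 weeks of the diet. Mouse codes in the titles show that each tumour shares its animal with the KAP1-deleted liver numbered alike, so the 6 libraries stem from 4 mice. There was no tumour from a control mouse in this set, so tumour and genotype could be separated only within the KAP1-deleted mice. How the control mice relate to the others is not stated. The p-values rest on the spread between 2 samples a group, pooled over the 3 groups and drawn towards that of other genes. Except in a fit with the mouse as a block, tumour and liver of the same mouse were treated as separate samples.

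In de novo lipogenesis, citrate leaves the mitochondrion and is split to acetyl-CoA, which acetyl-CoA carboxylase and fatty acid synthase turn into palmitate. Elongases and desaturases remodel the product and dietary fatty acids, and a chain of acyltransferases, phosphatases and a final acylation builds triglyceride on a glycerol backbone. In hepatocytes the pathway is under the transcription factors SREBP-1c, which answers to insulin, and ChREBP, which answers to carbohydrate.

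Genes held 39723997 to 62178752 counts per library, and 17558 genes were tested. Levels are CPM, gene counts scaled to library size with TMM factors. Each log2 fold change stands beside its SE and a Benjamini-Hochberg adjusted p from edgeR (quasi-likelihood), and a gene was called at 0.05. Trim28 stood at 5.22 and 4.59 CPM in tumours 1 and 2, 5.06 and 6.02 CPM in the 2 KAP1-deleted livers, and 32.5 and 35.9 CPM in control livers 1 and 2. Albumin (Alb), the defining hepatocyte transcript, was abundant in every library, with 18155 and 34869 CPM in the tumours, 53791 and 64502 CPM in the KAP1-deleted livers and 61350 and 74506 CPM in control livers. Tumours stood apart from the livers on the first principal component of all tested genes, which held 60.6% of the variance.

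A minority of the members was called in the tumour comparisons, and none between KAP1-deleted and control liver. "Not called" refers to the edgeR fit of all 6 libraries. Calls gained under an alternative are given beside the gene or with the block fit, but only in part for Slc25a1, Elovl6, Dgat2 and Lpin1. Between tumour and KAP1-deleted liver, 6 of the 32 genes fell (18.8%) and 0 rose, where 6.64% of all genes tested fell and 4.8% rose. The 6 were Acly, Fasn, Elovl3, Elovl5, Srebf1 and Agpat2. Of these 6, Acly alone kept its call whenever 1 library was left out. Without KAP1-deleted replicate 1 the calls of Elovl3, Elovl5 and Srebf1 were lost. Without tumour replicate 1 those of Fasn, Elovl5, Srebf1 and Agpat2 were lost, and Acacb, not among the 6, was called. With the mouse as a block 14 members fell (13.2% of all genes). Between tumour and control liver, 8 fell (25%) and 1 rose, where 7.76% of all genes fell and 6.15% rose. The 8 were the same 6 genes with Fads2 and Slc25a1, and the gene that rose was Lpin3. Leaving out tumour replicate 2 reduced the falls to 5 (3.94% of all genes). Without the filter on low counts 15 fell against KAP1-deleted liver (8.28% of all genes), 18 against control liver (8.5%) and 2 between KAP1-deleted and control liver (0.797%). Some adjusted p of that fit were far smaller than the spread between replicates allows, so its calls are uncertain. DESeq2 called 8 lower against KAP1-deleted liver (9.03%) and 13 against control liver (9.84%). The rise of Lpin3 was lost without either KAP1-deleted library, either tumour library or control replicate 2. In the fit without control replicate 2, Me1 was the member called higher. Without the filter and by DESeq2, 2 members rose against control liver, where 6.61% and 8.3% of all genes did, and 0 rose with the 4 libraries of that comparison alone (5.26% of all genes). In KAP1-deleted against control liver 0 members rose and 0 fell by edgeR, where 0.239% of all genes rose and 0.0968% fell. There 1 member had an unadjusted p under 0.05, a level that 5.44% of all genes reached. DESeq2 called 0 members and 1.31% of all genes, and limma-voom 0 members and 0.154%. The median log2 fold change of the members was -0.61 against KAP1-deleted liver and -1.02 against control liver in the tumours, with -0.03 and -0.02 over all genes tested. In bulk tissue, fewer cells of a type and less RNA per cell cannot be told apart. Both tumour comparisons use the same tumour libraries, so their calls are not separate evidence.

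The libraries of a group did not overlap with those of the other for most members in the tumour comparisons. Both tumours lay below both KAP1-deleted livers for 22 of the 32 genes (68.8%), as for 34.8% of all genes tested. They lay above both for Me1 and Lpin3 alone among the members, a relation seen in 28.7% of all genes. Against control liver, both tumours were below for 24 members (75%) and above for 2, again Me1 and Lpin3, beside 29.9% and 26.5% of all genes. For KAP1-deleted against control liver, 7 members were below and 3 above without overlap, beside 14.6% and 16.7% of all genes.

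**Figure D1:**
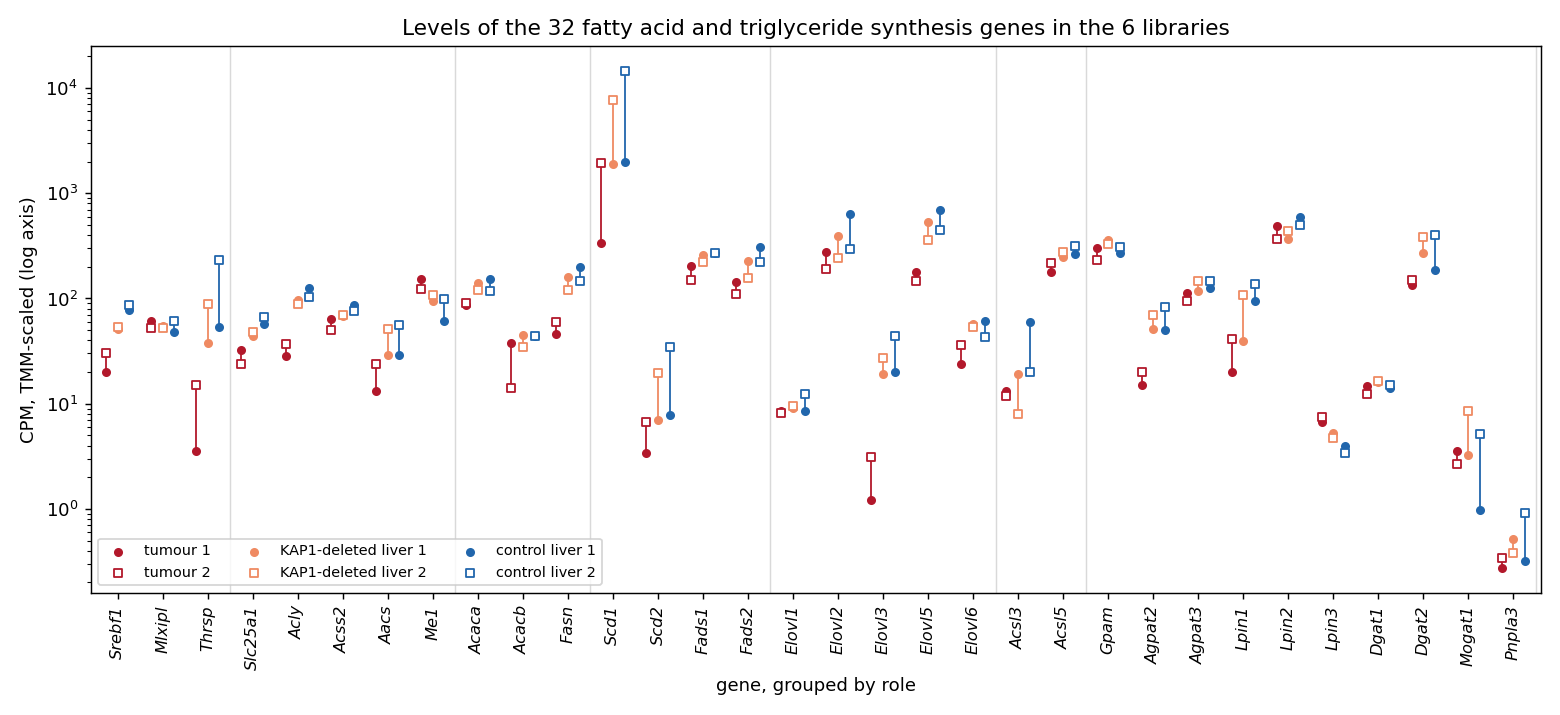
Level of each gene in TMM-scaled CPM on a log axis, with circles for replicate 1 and squares for replicate 2 of tumour (red), KAP1-deleted liver (orange) and control liver (blue). Grey lines separate the roles, from left to right regulators, acetyl-CoA and NADPH supply, carboxylases and synthase, desaturases, elongases, acyl-CoA ligases and triglyceride assembly. Srebf1, Acly, Fasn, Elovl3, Elovl5 and Agpat2 show red points below all others, and Scd1 spans 335 to 14573 CPM.

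Among the regulators, Srebf1 (ENSMUSG00000020538), which encodes SREBP-1, was lower in the tumours. Its level was 20.04 and 30.5 CPM in tumours 1 and 2, 51.8 and 53.6 CPM in the KAP1-deleted livers 1 and 2, and 77.3 and 86.1 CPM in control livers 1 and 2. The 3 groups did not overlap, with the tumours lowest and the control livers highest. Srebf1 fell by 1.69 ± 0.23 on the log2 scale in tumours against control liver (adjusted p = 0.00383), a call kept under every alternative (adjusted p up to 0.0214). It also fell in tumours against KAP1-deleted liver (log2 difference -1.06 ± 0.22, adjusted p = 0.0237). That call was lost without KAP1-deleted replicate 1 or 2 (adjusted p 0.0602 and 0.0874) and without tumour replicate 1 (0.107), in a range of 1.2e-04 to 0.107 over the alternatives. Between KAP1-deleted and control liver Srebf1 differed by -0.63 ± 0.22 (log2), at an unadjusted p of 0.021 and an adjusted p of 0.662. Srebf1 was the member with the smallest p in that comparison.

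Mlxipl, the gene of ChREBP, was not called in any comparison. It had 60.6 and 51.8 CPM in the tumours, 54.4 and 52.5 CPM in the KAP1-deleted livers and 48.5 and 61.6 CPM in control livers, and the ranges of the 3 groups overlapped. Thrsp, or Spot 14, is a small protein induced by thyroid hormone and carbohydrate that promotes lipogenesis. Its level was 3.53 and 14.9 CPM in tumours 1 and 2, 37.6 and 89.0 CPM in the KAP1-deleted livers 1 and 2, and 54.0 and 232 CPM in control livers 1 and 2. The tumours lay below all livers, but the libraries of a group were far apart. The log2 fold change of Thrsp was -2.78 ± 1.06 in tumours against KAP1-deleted liver (edgeR adjusted p = 0.167) and -3.96 ± 1.11 against control liver (adjusted p = 0.0849), and neither was called. Against control liver Thrsp was called lower by DESeq2 (adjusted p 0.00568), limma-voom (0.0253), under a stricter filter at a mean CPM of 5 (0.0447) and without the filter (1.35e-47), in a range of 1.35e-47 to 0.391 over the alternatives. Against KAP1-deleted liver it was called without the filter and in the block fit. Without the filter Thrsp was also called lower in KAP1-deleted against control liver (edgeR adjusted p 6.3e-05). Its libraries differed 4.23-fold in tumours and 4.29-fold in control livers, a spread that the edgeR adjusted p of 1.35e-47 does not reflect.

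The enzymes that supply acetyl-CoA were led by Acly (ENSMUSG00000020917), ATP citrate lyase, which splits citrate in the cytosol. Acly had 28.4 and 36.7 CPM in tumours 1 and 2, 95.7 and 88.5 CPM in the KAP1-deleted livers, and 126 and 103 CPM in control livers. Both tumours were below all livers. It fell against KAP1-deleted liver by 1.5 ± 0.20 on the log2 scale (adjusted p = 0.00529) and against control liver by 1.82 ± 0.20 (adjusted p = 0.00194). Both Acly calls held under every alternative run, with adjusted p up to 0.042 and 0.0197. Acly was the member with the smallest p in both tumour comparisons.

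Slc25a1 (ENSMUSG00000003528), the mitochondrial citrate carrier upstream of Acly, stood at 32.7 and 23.6 CPM in the tumours, 44.0 and 47.5 CPM in the KAP1-deleted livers and 57.6 and 67.1 CPM in control livers. As for Srebf1, the groups did not overlap. The fall of Slc25a1 against control liver was called (log2 fold change -1.15 ± 0.20, adjusted p = 0.0114) but lost without tumour replicate 2 (adjusted p 0.061, range 1.7e-05 to 0.061 over the alternatives). Against KAP1-deleted liver the log2 fold change of Slc25a1 was -0.70 ± 0.20 (adjusted p = 0.0643), which passed with the mouse as a block (adjusted p = 0.0215, range 0.0215 to 0.282 over the alternatives). Aacs, a cytosolic acetoacetyl-CoA synthetase that feeds ketone bodies into lipid synthesis, had 13.25 and 23.8 CPM in tumours, 29.2 and 51.4 CPM in the KAP1-deleted livers and 29.1 and 56.1 CPM in control livers. Aacs was not called (edgeR adjusted p 0.155 and 0.127 in the tumour comparisons). Without the filter it was called lower in both (2.9e-05 and 4.1e-06), and DESeq2 called it against control liver (0.0393), in ranges of 2.9e-05 to 0.606 and 4.1e-06 to 0.549 over the alternatives. Acss2, which makes acetyl-CoA from acetate, spanned 50.5 to 86.8 CPM over the 6 libraries. Me1, the cytosolic malic enzyme that yields NADPH, ran the other way, with 152 and 124 CPM in tumours against 94.9 and 107 CPM in the KAP1-deleted livers and 61.0 and 98.4 CPM in control livers. The log2 fold change of Me1 against control liver was 0.79 ± 0.25 and missed the threshold (edgeR adjusted p = 0.0784), but passed by DESeq2 (0.0303), without the filter (0.0115) and without control replicate 2 (0.0212), in a range of 0.0115 to 0.29 over the alternatives. Of the 31-base words of Me1, 63.1% occur in no other gene of the reference transcripts, so its value is uncertain.

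Of the enzymes that build palmitate, Fasn (ENSMUSG00000025153), fatty acid synthase, fell. Fasn had 45.9 and 59.4 CPM in the tumours, 158 and 121 CPM in the KAP1-deleted livers and 198 and 146 CPM in control livers. The highest tumour value was below the lowest liver value. Its log2 fold change was -1.40 ± 0.24 against KAP1-deleted liver (adjusted p = 0.0124) and -1.71 ± 0.25 against control liver (adjusted p = 0.00533). The first of these calls was lost without tumour replicate 1 (adjusted p 0.0874, range 4.2e-07 to 0.0874 over the alternatives). Acaca, the cytosolic acetyl-CoA carboxylase, had 87.0 and 90.3 CPM in the tumours, 139 and 120.3 CPM in the KAP1-deleted livers and 152 and 118 CPM in control livers. Its log2 fold change of -0.55 ± 0.20 and -0.61 ± 0.20 in the tumour comparisons was not called (edgeR adjusted p 0.11 and 0.0789). Acaca is uncertain, since 66.5% of its 31-base words are its own. Acacb, the carboxylase at the mitochondrion, had 37.8 and 14.2 CPM in tumours 1 and 2, with 34.9 to 45.3 CPM in the 4 livers. Tumour 1 lay within the range of the livers and tumour 2 below it. The edgeR adjusted p of Acacb was 0.369 and 0.281 in the tumour comparisons. Without tumour replicate 1 it was called lower in both (0.0306 and 0.0207), and without the filter against control liver (0.00948), in ranges of 0.0306 to 0.839 and 0.00948 to 0.621 over the alternatives.

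Sequence is shown for 4 of the 8 genes that fell against control liver, to let the promoters of citrate export, citrate cleavage, synthesis and elongation be read side by side. Each is the 250 bases before a RefSeq start, on the gene's own strand (GRCm38.p6). Capitals mark matches, on either strand, to the NF-Y box CCAAT, the Sp1 box GGGCGG and the E-box CACGTG. In the Fasn window a CCAAT and its reverse complement overlap.
Acly, chr11:100528001-100528250, minus strand: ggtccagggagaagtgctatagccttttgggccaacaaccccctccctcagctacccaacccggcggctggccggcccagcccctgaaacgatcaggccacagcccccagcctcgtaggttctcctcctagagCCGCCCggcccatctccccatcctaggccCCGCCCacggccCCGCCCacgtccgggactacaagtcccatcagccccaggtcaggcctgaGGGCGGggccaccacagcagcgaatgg
Fasn, chr11:120824548-120824797, minus strand: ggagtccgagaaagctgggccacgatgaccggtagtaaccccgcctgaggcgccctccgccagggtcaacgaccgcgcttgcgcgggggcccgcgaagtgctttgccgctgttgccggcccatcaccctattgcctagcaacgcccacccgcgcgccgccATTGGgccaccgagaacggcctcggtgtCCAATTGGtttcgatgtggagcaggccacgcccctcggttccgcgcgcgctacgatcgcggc
Elovl5, chr9:77917115-77917364, plus strand: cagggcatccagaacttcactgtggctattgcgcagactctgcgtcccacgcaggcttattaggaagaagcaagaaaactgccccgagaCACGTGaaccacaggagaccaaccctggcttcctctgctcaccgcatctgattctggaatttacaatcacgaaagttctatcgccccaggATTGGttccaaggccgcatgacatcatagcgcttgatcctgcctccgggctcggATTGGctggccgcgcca
Slc25a1, chr16:17928220-17928469, minus strand: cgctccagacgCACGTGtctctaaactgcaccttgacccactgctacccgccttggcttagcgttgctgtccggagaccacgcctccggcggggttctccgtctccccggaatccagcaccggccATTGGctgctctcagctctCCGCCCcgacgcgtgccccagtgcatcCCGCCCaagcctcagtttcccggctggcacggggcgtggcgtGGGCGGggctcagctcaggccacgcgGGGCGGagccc

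The RefSeq table held 36 such windows for 26 of the members. The NF-Y box CCAAT was in 44.4% of these windows and in 33.8% of all 32851 windows of that length. The Sp1 box GGGCGG was in 50% and 32.7%, and the E-box CACGTG in 11.1% and 6.02%. The sterol regulatory element, searched as TCACNCCAC, was in 1 member window, upstream of the more downstream RefSeq start of Mlxipl, and in 1.05% of all windows. Acly showed 4 Sp1 boxes and no CCAAT, and Fasn 3 CCAAT matches, counting the overlapping pair, and no Sp1 box. These letter matches describe the windows. Binding was not measured, and a part of these boxes in the falls was not tested.

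The desaturases held the most abundant member. Scd1, stearoyl-CoA desaturase 1, makes oleate and palmitoleate from saturated fatty acids. It had 335 and 1917 CPM in tumours 1 and 2, 1877 and 7695 CPM in the KAP1-deleted livers 1 and 2, and 1967 and 14573 CPM in control livers 1 and 2. Tumour 1 was lowest, tumour 2 overlapped with the lower KAP1-deleted liver, and 1 control liver exceeded the other 7.41-fold. The log2 fold change of Scd1 was -2.09 ± 1.35 in tumours against KAP1-deleted liver and -2.88 ± 1.39 against control liver, and neither was called (edgeR adjusted p 0.37 and 0.245). Without the filter on low counts Scd1 and Scd2 were called lower in both tumour comparisons, with adjusted p of Scd1 up to 0.903 and 0.837 over the alternatives. Scd2, its paralog, was likewise higher in replicate 2 of each group, with 3.40 and 6.70 CPM in tumours, 7.02 and 19.5 CPM in the KAP1-deleted livers and 7.88 and 34.9 CPM in control livers. Of the 31-base words of Scd1 and Scd2, 91.8% and 93.2% occur in no other gene, and some reads of Scd1 could be counted as Scd2.

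Fads1 and Fads2 are the delta-5 and delta-6 desaturases of polyunsaturated fatty acid synthesis. Fads2 (ENSMUSG00000024665) had 143 and 109 CPM in tumours, 226 and 157 CPM in the KAP1-deleted livers and 305 and 219.7 CPM in control livers. Its tumour values lay below all liver values. Fads2 fell against control liver (log2 difference -1.06 ± 0.27, adjusted p = 0.0382). That call was lost without control replicate 1 (adjusted p 0.0862), without tumour replicates 1 and 2 (0.0914 and 0.184), with upper-quartile scaling (0.0612) and with a mean CPM of at least 5 (0.0579), in a range of 4.0e-04 to 0.184 over the alternatives. Fads1 spanned 149 to 271 CPM over the 6 libraries, with both tumours below the livers, and was not called (edgeR adjusted p 0.224 and 0.107 in the tumour comparisons).

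Of the 5 elongases 2 fell. Elovl3 (ENSMUSG00000038754), which extends saturated and monounsaturated fatty acids to very long chains, had 1.21 and 3.14 CPM in tumours, 19.2 and 27.4 CPM in the KAP1-deleted livers and 19.97 and 44.1 CPM in control livers. It had the most negative log2 fold change of the members against KAP1-deleted liver, at -3.44 ± 0.59 (adjusted p = 0.0205), and stood at -3.90 ± 0.60 against control liver (adjusted p = 0.0125). The first call was lost without KAP1-deleted replicate 1 or 2 (adjusted p 0.116 and 0.182, range 1.7e-37 to 0.182 over the alternatives). The second was lost without the same libraries (0.064 and 0.0597) and without control replicate 2 (0.0664, range 4.7e-47 to 0.0664).

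Elovl5 (ENSMUSG00000032349), the elongase of polyunsaturated fatty acids, was an abundant member with 179 and 148 CPM in tumours, 527 and 356 CPM in the KAP1-deleted livers and 685 and 450.3 CPM in control livers. Its tumour values were below all liver values. It fell by 1.43 ± 0.30 on the log2 scale against KAP1-deleted liver (adjusted p = 0.0223) and by 1.80 ± 0.30 against control liver (adjusted p = 0.00872). The first call was lost without KAP1-deleted replicate 1 (0.0942) and without tumour replicates 1 and 2 (0.0889 and 0.113), in a range of 1.6e-06 to 0.113, and the second without tumour replicate 2 (0.0605, range 6.55e-10 to 0.0605). Elovl6, which turns palmitate into stearate, had 23.7 and 36.4 CPM in tumours, 56.6 and 53.8 CPM in the KAP1-deleted livers and 61.7 and 43.5 CPM in control livers. Its edgeR adjusted p was 0.0633 and 0.0739 in the tumour comparisons, although the groups did not overlap, and DESeq2 called it in the first (adjusted p = 0.0371, range 0.00214 to 0.263 over the alternatives). Elovl2, which acts beside Elovl5 on longer polyunsaturated chains, spanned 192 to 636 CPM and Elovl1 8.22 to 12.3 CPM, and neither was called. Elovl2 was called lower against control liver without the filter (edgeR adjusted p 0.00157) and without control replicate 2 (0.044), in a range of 0.00157 to 0.514 over the alternatives.

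Acyl-CoA ligases activate fatty acids for further use. Acsl5 had 177 and 216 CPM in tumours, 247 and 278 CPM in the KAP1-deleted livers and 264 and 313 CPM in control livers, and was not called (edgeR adjusted p 0.227 and 0.118 in the tumour comparisons). Acsl3, a ligase of lipid droplets and the endoplasmic reticulum, had 13.1 and 11.8 CPM in tumours, 19.0 and 7.92 CPM in the KAP1-deleted livers and 59.7 and 19.9 CPM in control livers. Both KAP1-deleted livers lay below both control livers, though by little for replicate 1. With a log2 fold change of -1.56 ± 0.63 Acsl3 had the most negative value of the members in that comparison, with an unadjusted p of 0.0535 and an adjusted p of 0.934. Acsl3 was called lower there without the filter (5.5e-09, range 5.5e-09 to 1 over the alternatives), and against control liver in tumours by DESeq2 (0.0126) and without the filter (5.6e-11, range 5.6e-11 to 0.446).

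In triglyceride assembly the acyltransferase Agpat2 (ENSMUSG00000026922), which makes phosphatidic acid, fell in the tumours. Its level was 15.2 and 19.8 CPM in tumours, 50.9 and 70.2 CPM in the KAP1-deleted livers and 50.5 and 83.6 CPM in control livers. All livers lay above both tumours. Agpat2 fell against KAP1-deleted liver (log2 difference -1.79 ± 0.29, adjusted p = 0.0101) and against control liver (-1.94 ± 0.29, adjusted p = 0.00601). Both calls were lost without tumour replicate 1 (adjusted p 0.0773 and 0.0542, ranges 3.4e-12 to 0.0773 and 2.5e-14 to 0.0542). Agpat3, of the same family, differed less, with 113 and 94.0 CPM in tumours, 118 and 146 CPM in the KAP1-deleted livers and 126 and 146 CPM in control livers.

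Gpam, the mitochondrial glycerol-3-phosphate acyltransferase that begins the pathway, had 299 and 233 CPM in tumours, 359 and 329 CPM in the KAP1-deleted livers and 268 and 311 CPM in control livers. The control livers overlapped with the tumours, and Gpam was not called (edgeR adjusted p 0.293 and 0.749 in the tumour comparisons). Dgat2, which adds the last acyl chain in hepatocytes, had 134 and 150.3 CPM in tumours, 272 and 380.4 CPM in the KAP1-deleted livers and 187 and 401 CPM in control livers. The tumours lay below all livers. Its edgeR adjusted p was 0.0682 and 0.0899, and DESeq2 called it in both tumour comparisons (adjusted p 0.0171 and 0.0373, ranges 5.7e-05 to 0.305 and 4.6e-04 to 0.42 over the alternatives). Dgat1, the other enzyme of that step, stayed between 12.4 and 16.3 CPM in all libraries.

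The lipins are phosphatases that turn phosphatidic acid into diacylglycerol. Lpin1 had 20.1 and 41.0 CPM in tumours, 39.2 and 107 CPM in the KAP1-deleted livers and 95.1 and 138 CPM in control livers. It was not called by edgeR (adjusted p 0.208 and 0.0825), while DESeq2 and limma-voom called it lower against control liver (adjusted p 0.00126 and 0.0426, range 9.6e-14 to 0.419 over the alternatives). Without the filter Lpin1 was called lower in both tumour comparisons (edgeR adjusted p 3.4e-06 and 9.6e-14). Lpin2, the most abundant lipin, spanned 365 to 597 CPM, and the tumours overlapped with the KAP1-deleted livers. Lpin3 (ENSMUSG00000027412) was the 1 member called higher, with 6.64 and 7.499 CPM in tumours, 5.22 and 4.70 CPM in the KAP1-deleted livers and 3.98 and 3.41 CPM in control livers. Its log2 fold change against control liver was 0.94 ± 0.21 (adjusted p = 0.0265). The call was lost without control replicate 2 (0.103), without KAP1-deleted replicate 1 or 2 (0.0591 and 0.0568), without tumour replicates 1 and 2 (0.0608 and 0.0941) and with the 4 libraries of the comparison alone (0.0567), in a range of 0.00184 to 0.103 over the alternatives. Mogat1, a monoacylglycerol acyltransferase, spanned 0.981 to 8.60 CPM and Pnpla3, a lipid droplet protein with lipase activity, 0.276 to 0.917 CPM. Without the filter Mogat1 was called lower against KAP1-deleted liver (edgeR adjusted p 0.0122), although tumours and KAP1-deleted livers overlapped. For Pnpla3 both tumours lay below both KAP1-deleted livers and overlapped with the control livers.

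**Figure D2:**
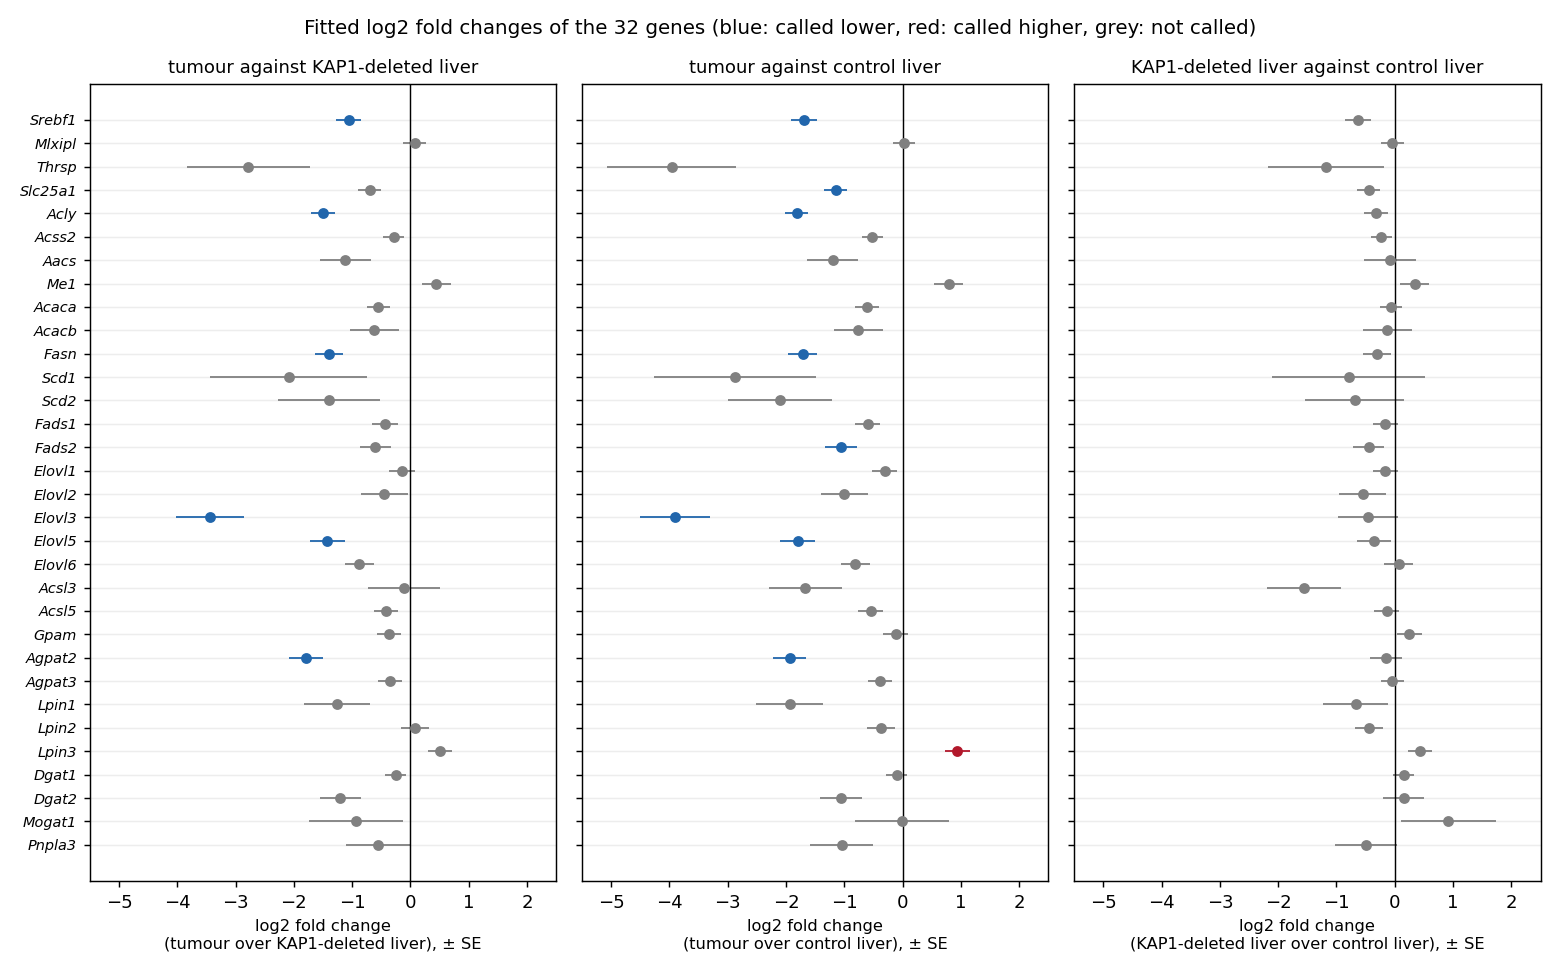
Log2 fold change of each gene with its SE in tumour against KAP1-deleted liver, tumour against control liver and KAP1-deleted liver against control liver, in order of role from the regulators at the top to triglyceride assembly. Blue points were called lower and red points higher at an adjusted p of 0.05. There are 6 blue points in the left panel, 8 blue points and 1 red point in the middle panel and none in the right panel.

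No member was called between KAP1-deleted and control liver. The log2 fold change was below 0 for 25 of the 32 members and the median was -0.20, beside 49.4% of all genes below 0 and a median of 0.00. Without control replicate 2 the median of the members was 0.01. After Srebf1 and Acsl3, the smallest p-values belonged to Slc25a1 (log2 fold change -0.45 ± 0.20) and Lpin3 (0.43 ± 0.21), with edgeR adjusted p of 0.955 and 1. Fasn stood at -0.30 ± 0.24 and Acly at -0.32 ± 0.20. The spread between libraries left wide intervals for some genes, with an SE of 1.31 for Scd1 and 1 for Thrsp, so changes of several fold in either direction were not detectable for these genes.

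The summed level of the 32 genes was 2997 and 4244 CPM in tumours 1 and 2, 5691 and 11404 CPM in the KAP1-deleted livers 1 and 2, and 6561 and 18973 CPM in control livers 1 and 2. Scd1 alone made up 11.2% and 45.2% of the members' counts in tumours, 33.0% and 67.5% in the KAP1-deleted livers and 30.0% and 76.8% in control livers. Without Scd1 the sums of the libraries of a group were close, although single genes differed in opposite directions. In control livers 1 and 2, Elovl2 had 636 and 296 CPM and Dgat2 187 and 401 CPM. The other 31 genes summed to 2662 and 2327 CPM in tumours, 3814 and 3709 CPM in the KAP1-deleted livers and 4594 and 4400 CPM in control livers. The 3 groups did not overlap in that sum, though no member was called between KAP1-deleted and control liver. Per kilobase of exon, a scale on which genes can be set side by side, Scd1 ranked first in all 3 groups, with 230.2 CPM per kilobase in tumours, 978 in KAP1-deleted livers and 1690.5 in control livers. Elovl5 was second in both kinds of liver, at 125 and 161 CPM per kilobase in KAP1-deleted and control liver, and Elovl2 was second in tumours at 58.8. Thrsp held rank 23 in tumours, rank 10 in KAP1-deleted liver and rank 6 in control liver, the widest difference in rank among the members.

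**Figure D3:**
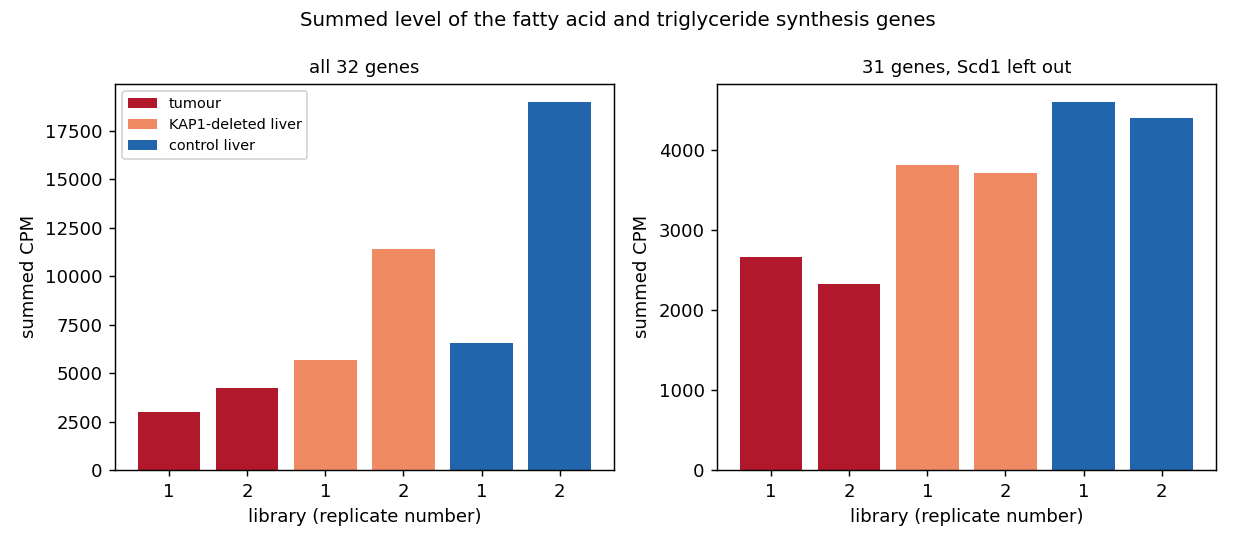
Summed CPM of all 32 genes (left) and of the 31 genes other than Scd1 (right) in each library, with tumours in red, KAP1-deleted livers in orange and control livers in blue. With Scd1 the control livers stand at 6561 and 18973 CPM, and without it at 4594 and 4400 CPM, above the KAP1-deleted livers and the tumours.

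The members fell into genes that were stable within groups and genes that were not. In control livers 9 of the 32 genes differed more than 2-fold between the libraries (28.1%, with 11.3% of all genes tested). The numbers were 6 in KAP1-deleted livers (18.8%, with 6.56% of all genes) and 5 in tumours (15.6%, with 9.58%). Scd1, Scd2, Thrsp, Elovl3, Lpin1 and Aacs were higher in replicate 2 than in replicate 1 of all 3 groups. So were Srebf1, Agpat2, Dgat2 and Acsl5, by smaller ratios in most groups. The share of all genes with the same order in all 3 groups was not counted. Between tumours and KAP1-deleted livers the order was the same for 18 members (56.25%) and for 53.3% of all genes tested. For Thrsp replicate 2 stood above replicate 1 by 4.23-fold in tumours, 2.37-fold in KAP1-deleted livers and 4.29-fold in control livers. Elovl2, Elovl5, Fads2 and Acsl3 were lower in replicate 2 of every group, Acsl3 by 1.11-fold in tumours, 2.40-fold in KAP1-deleted livers and 2.996-fold in control livers. Acly and Fasn differed by at most 1.36-fold between the libraries of any group. Replicate numbers pair tumours with KAP1-deleted livers, which share a mouse, but only name the control livers, so the match with control replicates carries no pairing.

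**Figure D4:**
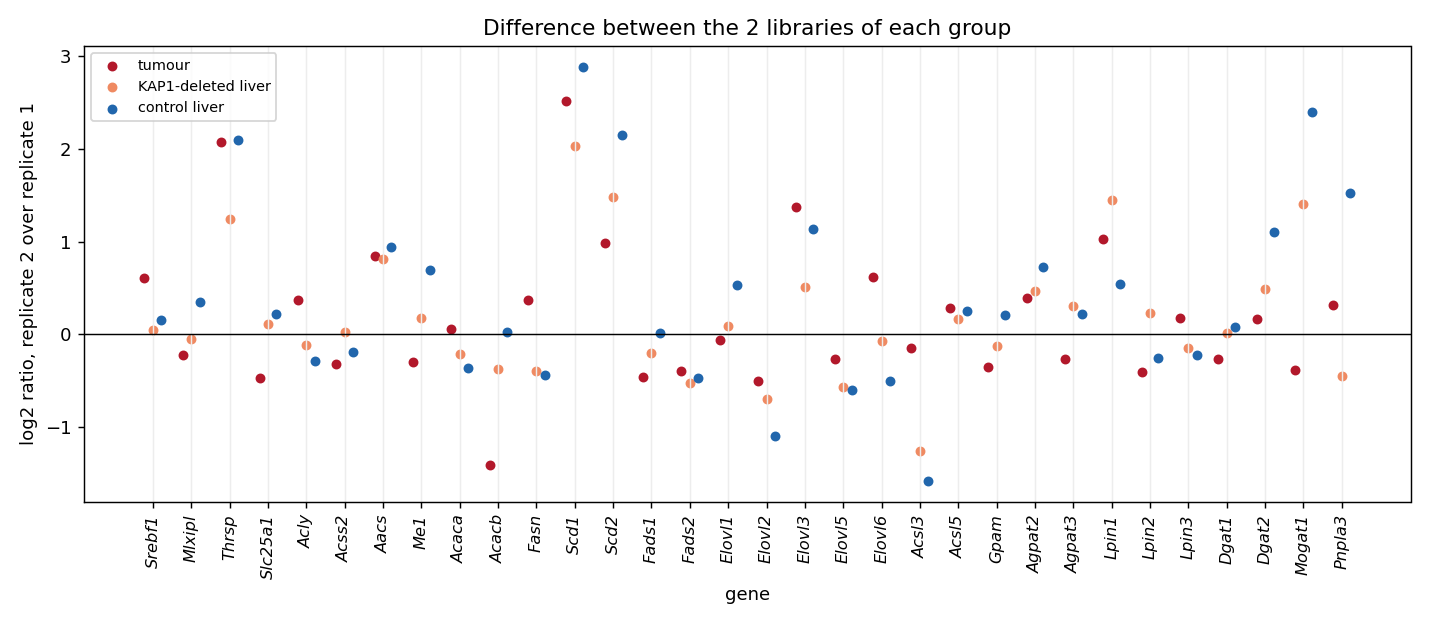
Log2 ratio of replicate 2 over replicate 1 for each gene, in tumours (red), KAP1-deleted livers (orange) and control livers (blue), in order of role. Scd1 stands at 2.52, 2.04 and 2.89 in the 3 groups, while Acly and Fasn stay within 0.5 of 0.

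Within each mouse, tumour could be set against the liver it grew in. Of the 32 genes, 26 were lower in the tumour in both mice, as were 39.7% of all genes tested, and Me1 and Lpin3 were higher in both, as were 34.9% of all genes. Scd1 was 5.60-fold lower in the tumour of mouse 1 and 4.01-fold lower in that of mouse 2, and Thrsp 10.6-fold and 5.96-fold. The direction was the same in both mice, although the levels of these genes differed between the mice. With the mouse as a block, 14 members fell and 0 rose by edgeR, where 13.2% of all genes fell and 8.95% rose. The 8 genes added were Scd1 (adjusted p = 0.00142), Scd2 (6.8e-04), Thrsp (7.7e-06), Lpin1 (9.4e-04), Aacs (8.0e-04), Dgat2 (0.00216), Elovl6 (0.00769) and Slc25a1 (0.0215). That fit has 1 residual degree of freedom, so these calls are uncertain. Over all alternatives the largest adjusted p of these 8 genes lay between 0.263 and 0.903, and the smallest between 7.3e-26 and 0.0215.

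Neighbouring steps of lipid synthesis were read from 4 further gene lists, whose counts stand beside the shares of all genes called in the same fit, 4.8% higher and 6.64% lower against KAP1-deleted liver and 6.15% higher and 7.76% lower against control liver. Against KAP1-deleted liver the share of all genes called lower was 9.15% and 8.3% when control liver 1 or 2 was left out, 2.68% and 1.87% when KAP1-deleted liver 1 or 2 was, 1.46% and 3.64% when tumour 1 or 2 was, and 13.2% in the block fit. Against control liver it was 8.82%, 3.97%, 5.6%, 5.63%, 2.43% and 3.94% for the same libraries left out in that order, and 5.42%, 3.77%, 4.74%, 4.8%, 3.66% and 3.73% of all genes were called higher. A count of 1 or 2 in lists of 17 to 22 genes is near these shares. Among 17 tested genes, of 20 listed, that activate, elongate or desaturate fatty acids, 3 rose and 0 fell between tumour and KAP1-deleted liver, and 3 rose and 1 fell between tumour and control liver (17.6% higher and 5.88% lower). Elovl7, an elongase of long-chain fatty acids, averaged 39.5 ± 8.27 CPM in tumours, 0.385 ± 0.0654 CPM in the KAP1-deleted livers and 0.319 ± 0.1248 CPM in control livers (SD, n = 2 each). It rose 102-fold against KAP1-deleted liver (log2 fold change 6.68 ± 0.32, edgeR adjusted p = 2.1e-04). Hacd2 and Hacd3, dehydratases of the elongation cycle, rose as well, Hacd2 to 117 ± 17.1 CPM in tumours against 28.5 ± 1.29 CPM in the KAP1-deleted livers (log2 difference 2.03 ± 0.18, edgeR adjusted p = 0.0013). Hacd3 averaged 774 ± 106 CPM in tumours and 240.2 ± 22.4 CPM in the KAP1-deleted livers (log2 difference 1.69 ± 0.22, edgeR adjusted p = 0.00494). Acsl1, a major acyl-CoA ligase of liver, fell against control liver (472 ± 89.4 against 1479.7 ± 288 CPM, edgeR adjusted p = 0.00937), a call lost without tumour replicate 2 (0.0582, range 5.5e-08 to 0.0582). The falls in this list against KAP1-deleted liver numbered 3 and 2 without control replicate 1 or 2 and 5 with the mouse as a block, and those against control liver 2 without control replicate 1. Elovl7, Hacd2 and Hacd3 kept their calls in both comparisons under every alternative.

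Of 20 other genes of glycerolipid assembly, 1 rose and 6 fell in tumours against KAP1-deleted liver (5% and 30%), and 1 rose and 6 fell against control liver. The gene that rose was Mogat2, a monoacylglycerol acyltransferase known from the intestine, at 5.78 ± 0.722 CPM in tumours, 0.232 ± 0.0889 CPM in the KAP1-deleted livers and 0.223 ± 0.0516 CPM in control livers. Its log2 fold change against KAP1-deleted liver was 4.63 ± 0.37 (edgeR adjusted p = 0.001). Chpt1, a choline phosphotransferase that makes phosphatidylcholine from diacylglycerol, fell to 93.7 ± 12.7 CPM in tumours against 429 ± 7.90 CPM in the KAP1-deleted livers and 316 ± 43.7 CPM in control livers (log2 fold changes -2.19 ± 0.22 and -1.76 ± 0.21, edgeR adjusted p 0.00184 and 0.0027). Mogat2 and Chpt1 kept their calls under every alternative that tested them. The falls against KAP1-deleted liver numbered 2 without either KAP1-deleted library and 1 without either tumour library, and those against control liver 3 without control replicate 2 and 2 without either tumour library.

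Of 22 regulators of lipogenic transcription, 3 fell and 0 rose against KAP1-deleted liver (13.6% lower), and 7 fell and 0 rose against control liver (31.8% lower). Insig2, which retains the SREBP escort protein in the endoplasmic reticulum, averaged 122 ± 22.1 CPM in tumours, 343 ± 18.2 CPM in the KAP1-deleted livers and 210.1 ± 10.45 CPM in control livers. It fell against KAP1-deleted liver (log2 fold change -1.5 ± 0.21, edgeR adjusted p = 0.00569). Scap, the escort protein itself, fell in both tumour comparisons (log2 fold changes -0.95 ± 0.18 and -1.17 ± 0.18, edgeR adjusted p 0.0174 and 0.00668). The first was lost without KAP1-deleted replicate 1 or 2 (0.052 and 0.108) and tumour replicate 2 (0.0838, range 6.5e-04 to 0.108). Tm7sf2, a sterol reductase in this list rather than a regulator, averaged 9.26 ± 1.28 CPM in tumours, 27.9 ± 2.81 CPM in the KAP1-deleted livers and 40.1 ± 0.154 CPM in control livers and fell in both comparisons (edgeR adjusted p 0.00278 and 8.3e-04). The falls against KAP1-deleted liver numbered 7 without either control library and 10 with the mouse as a block. Those against control liver numbered 11 and 4 without control replicate 1 or 2, and 3 without either tumour library.

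Of 20 genes of carbon and NADPH supply, 3 fell against KAP1-deleted liver (15%) and 2 against control liver (10%), and 0 rose. Gckr, the glucokinase regulatory protein, fell to 40.4 ± 8.54 CPM in tumours against 97.0 ± 14.9 CPM in the KAP1-deleted livers and 97.9 ± 25.3 CPM in control livers (edgeR adjusted p 0.0194 and 0.016). The calls of Gckr were lost without tumour replicate 1 (0.12 and 0.103, ranges 3.8e-06 to 0.12 and 2.2e-06 to 0.103), and the first also without KAP1-deleted replicate 2 (0.0819). The falls in this list against KAP1-deleted liver numbered 6 without control replicate 1, 1 and 0 without KAP1-deleted replicate 1 or 2, 0 and 1 without tumour replicates 1 and 2, and 8, beside 1 rise, with the mouse as a block. Those against control liver numbered 5 and 1 without control replicate 1 or 2, 1 without either KAP1-deleted library, and 0 and 1 without tumour replicates 1 and 2. In KAP1-deleted against control liver, none of the 79 tested genes of these 4 lists was called by edgeR, DESeq2 or limma-voom, and 5 had an unadjusted p under 0.05. The medians against KAP1-deleted liver were -0.15, -0.58, -0.56 and -0.46 for the 4 lists in the order given.

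**Figure D5:**
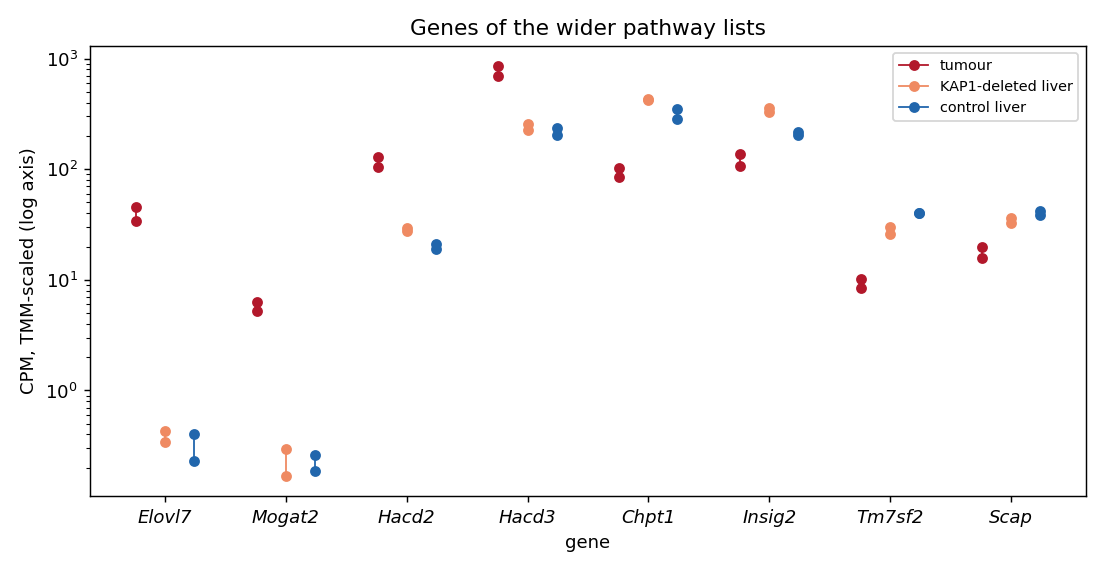
Level in TMM-scaled CPM on a log axis of 8 genes from the further lists, with both libraries of tumour (red), KAP1-deleted liver (orange) and control liver (blue) joined by a line. Elovl7, Mogat2, Hacd2 and Hacd3 lie higher in both tumours than in all livers, and Chpt1, Insig2, Tm7sf2 and Scap lower.

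Marker sums of hepatocytes, of pericentral and periportal hepatocytes, of Kupffer cells and macrophages and of endothelial cells did not overlap between tumours and livers. Those of stellate cells, lymphocytes and cholangiocytes overlapped. Alb made up most of the hepatocyte sum and was not called (edgeR adjusted p 0.126 and 0.0796 in the tumour comparisons). Among the hepatocyte markers only Apoa2 and Ttr overlapped between tumours and livers. Of the Kupffer cell and macrophage markers Adgre1 alone did, at 27.3 and 45.0 CPM in tumours and 37.9 to 46.5 CPM in livers. Among all genes tested, 4.8% rose and 6.64% fell against KAP1-deleted liver, and 6.15% rose and 7.76% fell against control liver. A count of 0 or 1 in lists of 4 to 8 genes is near these shares. The 8 hepatocyte markers summed to 24842 and 44353 CPM in tumours, 73148 and 84904 CPM in the KAP1-deleted livers and 80730 and 92240 CPM in control livers, and 3 of 8 fell in both tumour comparisons, 1 without tumour replicate 1. Pericentral markers summed to 17052 to 19800 CPM in tumours against 6283 to 8851 CPM in the livers, and 5 of 7 tested rose in both tumour comparisons. Periportal markers summed to 529 to 718 CPM in tumours against 3515 to 4782 CPM in the livers, and 5 of 8 fell in both tumour comparisons. Left-out libraries gave 2 to 8 falls in each, 8 without tumour replicate 2, 2 without either KAP1-deleted library and 3 without control replicate 1. Without control replicate 2 there were 3 falls against KAP1-deleted liver and 2 against control liver. Macrophage markers summed to 209 to 245 CPM in tumours against 458 to 500.3 CPM in the livers, and 5 of 8 fell against KAP1-deleted liver and 6 against control liver, with 2 to 5 and 2 to 4 falls when a library was left out. Endothelial markers summed to 195 to 213 CPM in tumours against 282 to 316 CPM in the livers, and 1 of 8 fell in both comparisons, 0 to 3 with a library left out. Stellate cell markers summed to 189 to 344 CPM in tumours against 335 to 444 CPM in the livers, and 2 of 8 fell, 0 to 5 with a library left out. Lymphocyte markers summed to 3.42 to 6.78 CPM in tumours against 1.82 to 6.90 CPM in the livers, and 1 of 7 tested rose against control liver, 0 without either control library or tumour replicate 2. Cholangiocyte markers summed to 3.08 to 22.0 CPM in tumours against 15.6 to 34.5 CPM in the livers, with 0 of 4 tested called, and 2 falls without tumour replicate 2. The part of these shifts in the lower lipogenic transcripts was not tested. Of the adipocyte markers, Adipoq was at 0 in 4 and Lep in 5 of the 6 libraries, and neither exceeded 0.0679 CPM. Retn, Plin1 and Slc7a10 did not exceed 0.0847 CPM. Adrb3 was higher in tumours, at 6.96 and 7.39 CPM against 1.39 to 4.13 CPM in the livers. Against control liver edgeR called 0 of the 3 tested markers, and DESeq2 called 1 higher (8.3% of all genes). Cfd and Cidea, from the same list, differed between replicates as Scd1 did, Cfd with 0.0414 and 0.419 CPM in tumours 1 and 2, 0.658 and 4.11 CPM in the KAP1-deleted livers and 0.115 and 13.1 CPM in control livers. Exocrine pancreas markers summed to 25.5 CPM in KAP1-deleted liver 2 and to at most 0.609 CPM elsewhere. Their part in the level of any member was not tested.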

How the data were processed

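RNA sequencing libraries of 6 tissue samples from 4 mice were compared, 2 per group. The deposited files hold raw counts of reads per Ensembl gene, which the authors made with TopHat and HTSeq 0.6.1 on build mm9, per the submitters' processing notes. Which annotation, strand setting and filters were used is not stated in these sources; antisense or overlapping genes are therefore uncertain. Entries that name no gene, 20.9% to 36.7% of counted reads, were left out. Gene symbols and lengths came from GENCODE M21 (GRCm38) by Ensembl identifier, and promoter windows from RefSeq (GRCm38.p6).

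Testing used edgeR 4.0.16 (R 4.3.3), filterByExpr (minimum count 10, minimum total 15), TMM scaling, 1 mean per group over all 6 libraries and a robust quasi-likelihood fit with 3 residual degrees of freedom. P-values were two-sided, with Benjamini-Hochberg adjustment over 17558 genes. SE is the log2 fold change over the square root of F. TMM factors were 0.864 to 0.948 in livers and 1.22 to 1.31 in tumours. Counts were simulated for tumour against KAP1-deleted liver over 17558 genes, with a dispersion of 0.05 for every gene. Of 100 genes changed 2-fold 18% were called, and of 100 changed 4-fold 89%, with 5 false calls. These shares do not describe genes with a wider spread, such as Scd1 and Thrsp. No pair of replicates agreed within counting error (chi-square over its degrees of freedom 90.9 to 353).

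The mouse codes pair tumour and KAP1-deleted liver; their deviations from the group means correlated with r = 0.15 across genes. The block fit, DESeq2 1.42.0, limma-voom 3.58.1, other scalings and filters, 4-library fits and leaving out each library were the alternatives. The members and lists were chosen with earlier results of these data known. All members are described, with full statistics for those called in any comparison and for the 4 with the smallest p in each, and wider lists by up to 4 called genes with the smallest adjusted p.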

Additional observations from a re-analysis of the deposited data

How the results depend on the processing

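The members called lower in tumours against KAP1-deleted liver numbered 6, and 15 without a filter on low counts, 14 with the replicate block by mouse, and 3 to 9 when each library was left out. Against control liver 8 fell, and 18 did so without the filter, 13 by DESeq2 and 5 to 9 when libraries were left out. The 1 rise there became 2 without the filter, 2 by DESeq2, 0 with the 4 libraries compared and 0 to 1 when libraries were left out. In KAP1-deleted against control liver 2 members fell without the filter. The cause of these changes was not tested, and the calls without the filter are uncertain. Upper-quartile and DESeq2 size factors shifted the median of all genes by at most 0.093 on the log2 scale. Of 96 member values 22 changed sign under an alternative, 15 of them between KAP1-deleted and control liver, and 0 of the 22 were called. In that comparison leaving out each library gave -0.25 to 0.13 for Acaca, -0.33 to 0.04 for Acacb, -2.14 to 1.27 for Scd1, -1.62 to 0.74 for Scd2, -0.40 to 0.12 for Elovl1, -1.02 to 0.10 for Elovl2, -0.92 to 0.20 for Elovl3, -0.18 to 0.34 for Elovl6, -0.21 to 0.12 for Mlxipl, -1.93 to 0.21 for Thrsp, -1.02 to 0.48 for Pnpla3, -0.47 to 0.24 for Agpat2, -0.21 to 0.11 for Agpat3, -0.30 to 0.78 for Dgat2 and -0.55 to 0.45 for Aacs. In tumour against KAP1-deleted liver it gave -0.05 to 0.17 for Mlxipl, -0.14 to 0.25 for Lpin2 and -0.62 to 0.64 for Acsl3, and Acsl3 stood at 0.03 with limma-voom and 0.01 with the replicate block. In tumour against control liver it gave -0.15 to 0.21 for Mlxipl, -0.31 to 0.04 for Gpam, -0.24 to 0.01 for Dgat1 and -0.75 to 1.66 for Mogat1, which stood at -0.01 and at 0.02, 0.09, 0.04 and 0.29 with DESeq2-style size factors in edgeR, upper-quartile factors, DESeq2 and limma-voom. Over 123 gene results, 1599 of 1756 alternative values kept direction and side of the threshold, 63 lost the call, 58 gained it and 36 changed sign. With 2 libraries per group, changes of 2-fold were mostly below detection in counts simulated at the same dispersion for every gene.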
